A study of Drosophila melanogaster with 12 samples.

Results

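Methylation of lysine 9 on histone H3 (H3K9) is set by writers, bound by readers and removed by erasers. Transcripts of 9 *Drosophila melanogaster* genes of this system were examined in male heads that lacked the writer G9a or carried it, before and during oxidative stress (OS) from paraquat. The 9 genes were taken by their FlyBase identifiers. They are the methyltransferases *G9a*, *Su(var)3-9* and *egg*, the methyltransferase cofactor *wde*, the HP1 proteins *Su(var)205*, *HP1b* and *HP1c*, and the demethylases *Kdm4A* and *Kdm4B*. All 9 were among the 15682 genes of the count table, and all 9 passed the minimum of a mean of 10 normalized counts over the libraries. Controls (labelled wildtype control) carry a precise excision of the same P-element in the same background, and mutants (labelled G9a homozygous mutant (DD1)) carry the *G9aDD1* allele, made by P-element excision. Flies were 5 to 9 days old and were sampled without treatment (0 h) or once they had fed on 50 mM paraquat for 6 or 12 h. Each of the 6 groups has 2 libraries, each from 200 heads, so 12 libraries in all. No group was kept off paraquat for 6 or 12 h, so hours on the food and paraquat itself cannot be told apart. The labels do not say whether the duplicates come from separate cultures, and p-values then measure only the spread between these libraries.

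Methylated H3K9 marks silent chromatin. Su(var)3-9 methylates it in the pericentric heterochromatin, egg (the fly SETDB1) acts with its cofactor wde and is known for its role on the small chromosome 4 and in the ovary, and G9a acts mainly in euchromatin and is dispensable for viability in flies. HP1 proteins bind the mark through a chromodomain and spread or anchor the silent state, and KDM4 enzymes remove methyl groups from H3K9 and H3K36. In neurons of flies and mice, G9a is known for effects on learning and memory.

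The libraries held 19275805 to 41393992 reads on genes. The 0 h libraries were the deepest, which ties depth to time. The heads were checked against marker lists fixed for this purpose. The 4 neuronal markers summed to 129722 to 158240 normalized counts in the 12 libraries. Testis markers, 10 of 12 found in the table, summed to 330 to 414 in controls and to 218 to 299 in mutants. Of these, *mia* held 142 to 272 normalized counts, *can* 18.1 to 81.5 and *betaTub85D* 26.5 to 67.6. The others held at most 15.9, with *Mst84Db* at 0 in all 12 libraries. Accessory gland markers summed to at most 20.1. The 4 glial markers summed to 8279 and 9355 in mutants at 12 h and to 10268 to 14060 in the other 10 libraries. The 3 of 4 muscle markers that were found summed to 46775 to 73402 in controls over all hours. In mutants these muscle markers summed to 37621 to 44222 at 0 and 6 h, and to 26474 and 27809 at 12 h. Photoreceptor markers summed to 948867 to 1125630 in controls and to 1212530 to 1353190 in mutants over all hours. Most of this sum was *ninaE*, at 797527 to 1161250, against 11604 to 107270 for the other photoreceptor markers. Haemocyte markers summed to 446 to 1324 in controls and to 188 to 469 in mutants. The 4 fat body markers, all found, summed to 135709 to 138079 in controls at 0 h and 67876 to 70471 at 12 h, against 70370 to 90605 in mutants at 0 h and 8200 to 10013 at 12 h. The fat body marker *Fbp1* held at most 13.2 normalized counts and adds almost nothing to these sums. In bulk heads, fewer cells of a type and less RNA per cell cannot be told apart.

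Levels of different genes were set side by side as normalized counts per kilobase of exon that no other gene shares (exons of Ensembl release 115, build BDGP 6). *Su(var)205*, which encodes HP1a, had the highest mean over the 12 libraries, 1623 per kb, with a range of 1491 to 1734. *Kdm4B* stood at 1587 per kb, but 84.8% of its exon bases are shared with other genes. Its whole count was divided by the remaining 1024 of 6742 bases, so any reads from shared bases in that count inflate the value. Its level per length and its place in the order are therefore uncertain. *wde* followed with 522, *HP1c* with 443, *G9a* with 441, *HP1b* with 333, *egg* with 283, *Kdm4A* with 241 and *Su(var)3-9* with 69.0 per kb. *HP1c* shares 16.2% of its exon bases, *egg* 16.0% and *Su(var)3-9* 14.8%. Reads on shared bases may have stayed in their counts, above all for *egg*, whose overlapping gene is not in the count table. The order of *egg* and *Kdm4A*, and of *HP1c* and *G9a*, is therefore uncertain. With *Kdm4B* left aside, the ranges over libraries overlapped for the neighbours *HP1c* and *G9a*, for *G9a* and *HP1b*, and for *egg* and *Kdm4A*. *Su(var)3-9*, at 51.2 to 112 per kb, lay below every library of the other 8 genes, and its counts rest on 84 to 209 reads per library.

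**Figure D1:**
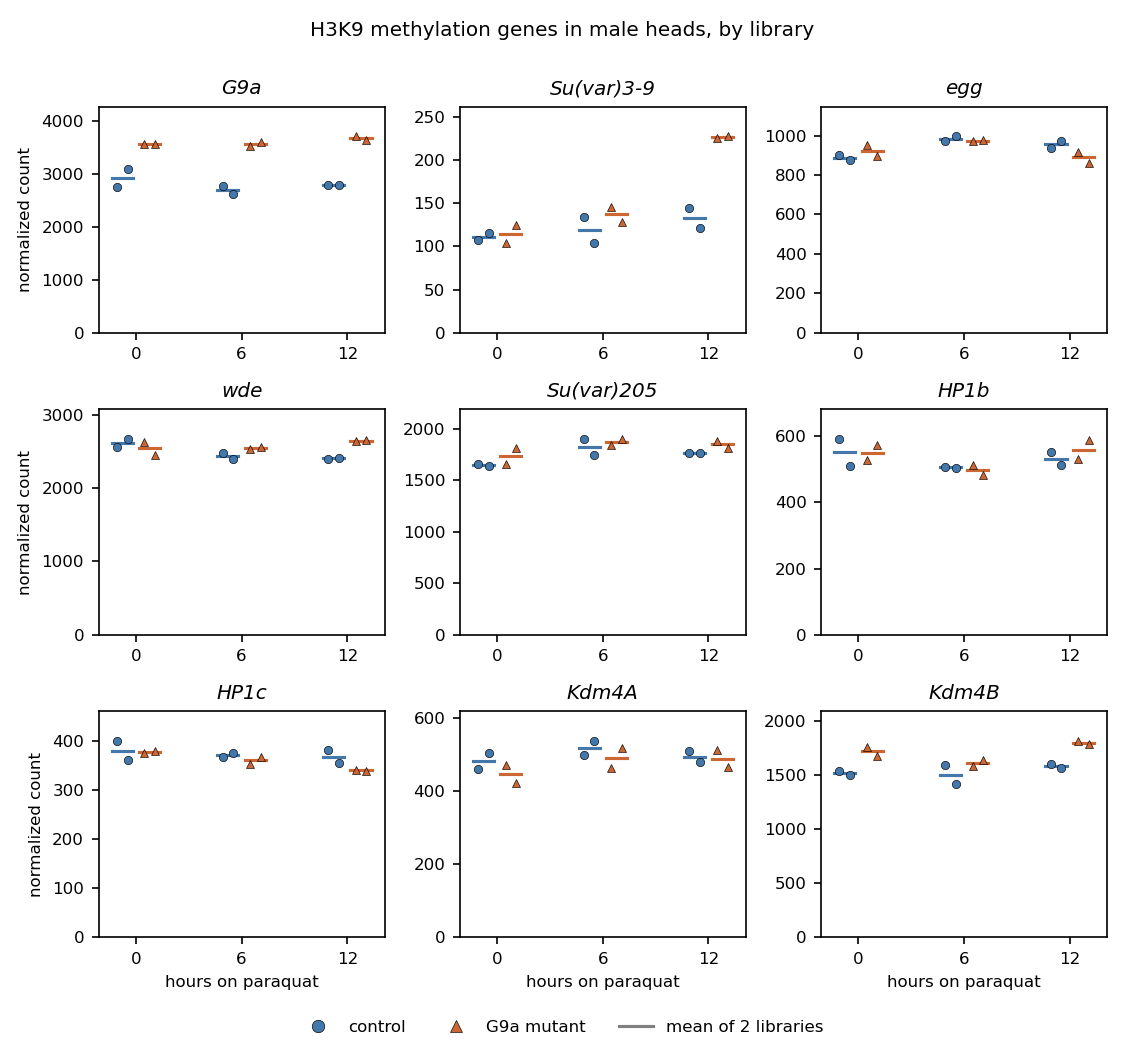
Normalized count (vertical axes, linear and starting at 0) against hours on paraquat (horizontal axes) for each of the 9 genes. Points are the 2 libraries of each group, circles for controls and triangles for G9a mutants, and bars are their means. *G9a* is higher in every mutant library (3519 to 3700) than in any control library (2620 to 3087), and *Su(var)3-9* stands apart in the mutants at 12 h (226 and 227).

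Most of the 9 genes varied little. From the lowest to the highest of the 12 libraries, *wde* spanned 0.15 on the log2 scale, and 0.684% of the 10530 tested genes had a smaller span. *egg* (0.21), *Su(var)205* (0.22), *HP1c* (0.24) and *HP1b* (0.29) came next, and 3.77% to 12.3% of genes spanned less. *Kdm4A* spanned 0.35, *Kdm4B* 0.36 and *G9a* 0.50. *Su(var)3-9* had the widest span of the 9, 1.12, from 104 to 227 normalized counts. The median span of all tested genes was 0.64, so 8 of the 9 genes lay below it. Genes with few reads span more through counting error alone, and *Su(var)3-9* had the fewest reads of the 9.

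**Figure D2:**
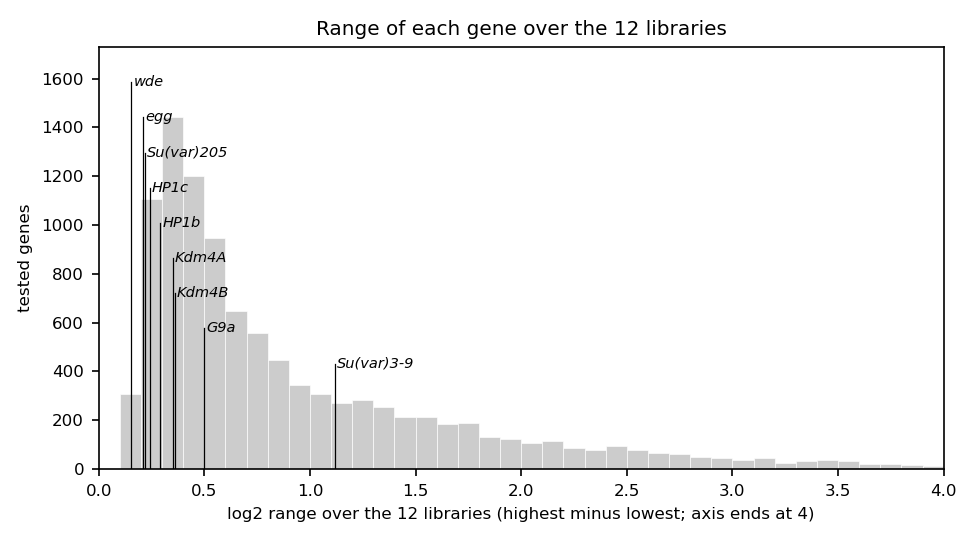
Number of tested genes (vertical axis) by the log2 range of the normalized count over the 12 libraries (horizontal axis, highest minus lowest library, cut at 4). Vertical lines mark the 9 genes, with line heights chosen only to separate the names. From *wde* at 0.15 to *G9a* at 0.50 the lines lie below the median of 0.64, and *Su(var)3-9* lies above it at 1.12.

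To ask whether the H3K9 genes respond to paraquat or to loss of G9a, 9 comparisons were made. Each exposure was set against 0 h within a genotype, the genotypes were set against each other at 0, 6 and 12 h, and the 6 h and 12 h responses were compared between genotypes. A gene was called where it changed at least 1.5-fold (0.585 on the log2 scale) with an adjusted p of at most 0.05 (limma on log2 values of the normalized counts with 1 added, Benjamini-Hochberg over 10530 genes). An exact permutation test of 2 against 2 libraries can give no p below 0.333, so it was not used. For the same reason, 2 libraries that lie above 2 others are in themselves a weak sign of a difference. The share of all tested genes with such a split at a single hour was not counted. In controls, 0 of the 9 genes were called at 6 h, where 7.27% of all tested genes were, and 0 at 12 h, where 10.2% were (7.31% as higher). At unadjusted p under 0.05, 2 of the 9 passed at 6 h (36.7% of all tested genes) and 1 at 12 h (42%).

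In mutants, 0 of 9 were called at 6 h (13.2% of all genes) and 1 of 9 at 12 h (23% of all genes, 12.7% as higher). Between genotypes, 0 of 9 were called at 0 h (10.3%) and at 6 h (13.9%), and 1 of 9 at 12 h (19.7%, with 9.46% as higher). For the difference of the responses, 0 of 9 were called at 6 h (8.19%) and 1 of 9 at 12 h (15.8%, with 7.26% as higher). The called gene was *Su(var)3-9* each time, and it was higher in mutants at 12 h. A single call among 9 genes is near these backgrounds. In the comparisons with 0 calls, DESeq2 and edgeR also called 0, and at unadjusted p under 0.05 limma passed 0 of the 9 in mutants at 6 h (43.7% of all tested genes), 2 between genotypes at 0 h (37.2%), 1 between genotypes at 6 h (42.7%) and 0 for the difference of the 6 h responses (26.2%).

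The adjusted p alone, at any fold, was passed by 0 of 9 genes in controls at 6 h (26.3% of all tested genes) and at 12 h (32.4%). In mutants it was passed by 0 at 6 h (35.7%) and 1 at 12 h (52.9%). Between genotypes 2 passed at 0 h (26.6%), 1 at 6 h (33.8%) and 4 at 12 h (43.4%), and for the difference of the responses 0 passed at 6 h (14.5%) and 1 at 12 h (28.4%). The 4 that passed at 12 h between genotypes were *G9a*, *Su(var)3-9*, *wde* and *Kdm4B*, each higher in mutants.

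**Figure D3:**
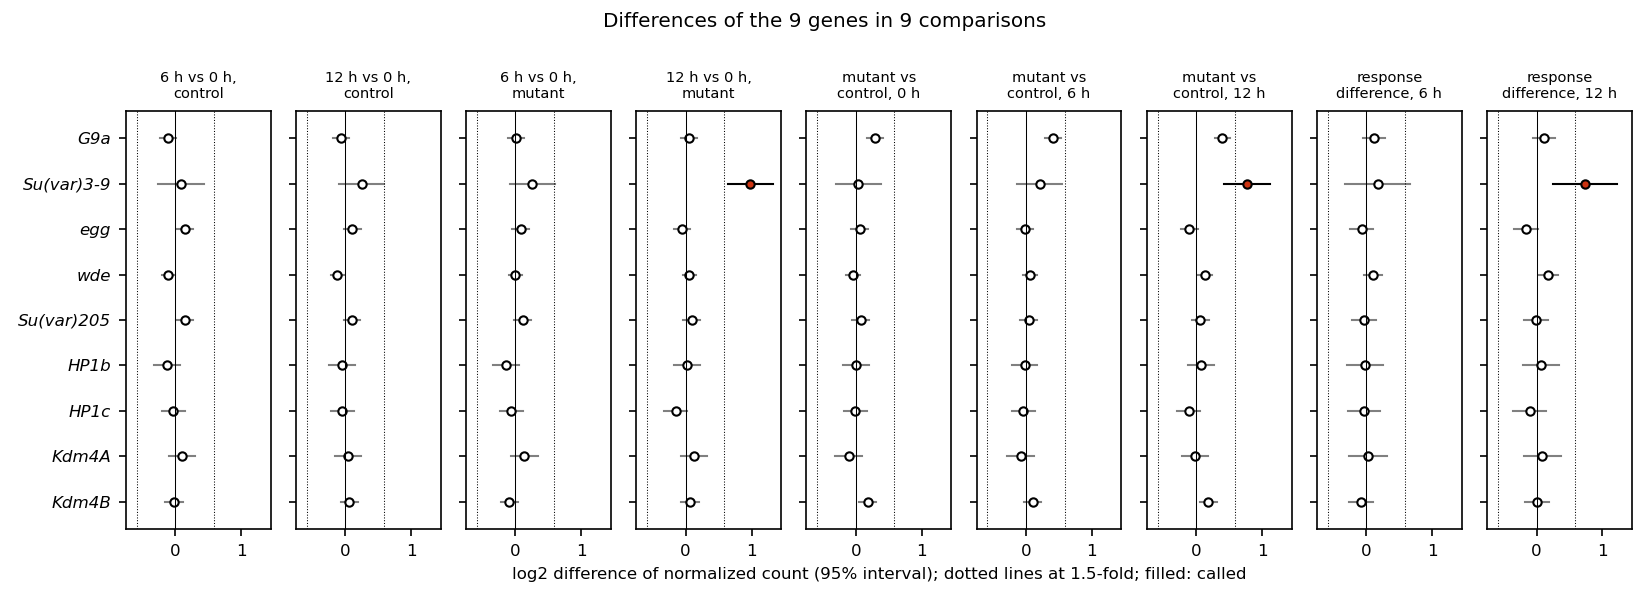
Log2 difference of the normalized count (horizontal axes, with 95% intervals as bars) for the 9 genes in the 9 comparisons. Dotted lines mark a 1.5-fold change either way and filled points are called. The 72 intervals of the 8 genes other than *Su(var)3-9* stay between the dotted lines, and the 3 filled points are *Su(var)3-9* in mutants at 12 h against 0 h (0.98), against controls at 12 h (0.77) and in the difference of the 12 h responses (0.73).

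The intervals show how large a change could have been missed. For *G9a*, *egg*, *wde*, *Su(var)205*, *HP1b*, *HP1c*, *Kdm4A* and *Kdm4B*, 72 of 72 intervals of 95% lay inside 1.5-fold in either direction. Without *G9a*, the 63 differences of the other 7 reached at most 0.19 on the log2 scale (1.14-fold), and the widest interval ended at 0.38 (1.30-fold). For *Su(var)3-9*, 3 of 9 intervals lay inside 1.5-fold. The share of all tested genes with intervals inside 1.5-fold was not counted. The median absolute log2 difference of the 9 genes in mutants at 12 h was 0.07, against 0.27 over all tested genes. Between genotypes at 12 h it was 0.11, against 0.22 over all tested genes.

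*G9a* (FBgn0040372, X chromosome) encodes the writer whose loss defines the mutants. Control libraries held 2740 and 3087 normalized counts at 0 h, 2764 and 2620 at 6 h, and 2779 and 2780 at 12 h. Mutant libraries held 3553 and 3549 at 0 h, 3519 and 3603 at 6 h, and 3700 and 3633 at 12 h. All 6 mutant libraries were above all 6 control libraries, a separation that 11.3% of tested genes also showed in one direction or the other. The log2 difference was 0.29 at 0 h (95% interval 0.17 to 0.41, adjusted p = 0.0026), 0.40 at 6 h (0.28 to 0.52, adjusted p = 0.0002) and 0.40 at 12 h (0.28 to 0.52, adjusted p = 0.0001). Each passed the adjusted p, as 26.6%, 33.8% and 43.4% of all genes did, and none reached 1.5-fold. The transcript count of *G9a* was 1.22 to 1.32 times as high in mutants, whatever the hour. Which bases *G9aDD1* lacks is not given in the sources used here, so a count over the whole gene does not check the genotype labels, and reads from the remaining exons of the allele enter it.

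Over the hours on paraquat, the *G9a* count stayed within narrow limits in both genotypes. In controls the log2 difference from 0 h was -0.11 at 6 h (-0.23 to 0.01, adjusted p = 0.17) and -0.07 at 12 h (-0.19 to 0.06, adjusted p = 0.40). In mutants it was 0.00 at 6 h (-0.12 to 0.12, adjusted p = 0.97) and 0.05 at 12 h (-0.07 to 0.17, adjusted p = 0.51). The responses of the genotypes differed by 0.12 at 6 h (-0.06 to 0.29, adjusted p = 0.40) and 0.11 at 12 h (-0.06 to 0.28, adjusted p = 0.33), neither past the threshold.

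Because the allele came from an excision at the *G9a* locus, the 3 annotated neighbours on each side were examined. Of these 6, a pair are *INE-1* transposable elements, not analysed here, and *CG42376* was too low to test (1.33 to 14.7 normalized counts). The other 3, *CG3038*, *cin* and *CG13377*, were not called between genotypes at any hour, where 10.3% to 19.7% of all tested genes were. Their log2 differences ran from -0.44 (*CG3038* at 6 h, adjusted p = 0.09) to 0.37 (*CG13377* at 0 h, adjusted p = 0.38). *cin*, a molybdenum cofactor gene, had only 11.2 to 26.8 normalized counts, and its interval at 0 h ran from -0.82 to 0.95. The interval of *CG13377* at 0 h ran from -0.25 to 0.98. For both genes a change beyond 1.5-fold could have been missed. *CG3038* was called higher in controls at 6 h than at 0 h (0.63, adjusted p = 0.026).

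The 5 genes whose profile over the 12 libraries was most like that of *G9a*, by the root mean square difference of centred log2 values among 9245 genes with a mean of at least 50, were *CG10508* (0.05), *babo* (0.06), *Ptpmeg2* (0.06), *Vrp1* (0.07) and *Ziz* (0.07). *babo* encodes an Activin receptor and held 4225 to 4882 normalized counts in controls and 5177 to 5443 in mutants. *CG10508* held 3112 to 3494 in controls and 4115 to 4387 in mutants. Of the other 8 H3K9 genes, *Kdm4B* was nearest to *G9a* (0.13) and *Su(var)3-9* farthest (0.31).

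*Su(var)3-9* (FBgn0263755, chromosome arm 3R) encodes the heterochromatin writer. Control libraries held 107 and 115 normalized counts at 0 h, 134 and 104 at 6 h, and 145 and 121 at 12 h. Mutant libraries held 104 and 125 at 0 h, 146 and 128 at 6 h, and 226 and 227 at 12 h. The mutant libraries at 12 h stood above the other 10, whose highest value was 146. *Su(var)3-9* rose in mutants by 0.98 on the log2 scale from 0 h to 12 h (standard error 0.16, 95% interval 0.64 to 1.33, 1.98-fold, adjusted p = 0.00025), and at 12 h it was higher in mutants than in controls by 0.77 (0.43 to 1.12, 1.71-fold, adjusted p = 0.0018). The same pair of mutant libraries enters both comparisons. In controls the log2 difference from 0 h to 12 h was 0.25 (-0.09 to 0.59, adjusted p = 0.26), an interval that reaches just past 1.5-fold. The 12 h response was larger in mutants by 0.73 (standard error 0.22, 0.25 to 1.22, adjusted p = 0.028).

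Both larger calls held under 23 of 23 alternatives, with a log2 difference of 0.85 to 1.12 in mutants at 12 h against 0 h and of 0.64 to 0.90 between genotypes at 12 h. The difference of the 12 h responses was called under 17 of 23. It was lost with DESeq2 (0.73, adjusted p = 0.069) and when any of 5 single libraries was left out, namely control 0 h replicate 2 (0.68, adjusted p = 0.080), control 12 h replicate 2 (0.60, adjusted p = 0.11), mutant 0 h replicate 1 (0.60, adjusted p = 0.11), or mutant 12 h replicate 1 (0.74, adjusted p = 0.063) or 2 (0.73, adjusted p = 0.070). Its adjusted p over all 23 ran from 0.012 to 0.11. At 6 h, *Su(var)3-9* in mutants was 0.26 above 0 h (-0.09 to 0.60, adjusted p = 0.24) and 0.21 above controls (-0.13 to 0.55, adjusted p = 0.35), neither past the threshold. The same 2 mutant libraries held the lowest sums of the fat body, glial, muscle and neuronal markers of the 12 libraries, and not those of the photoreceptor or haemocyte markers. Their neuronal sums (131325 and 129722) were close to the next lowest (131904, controls at 6 h). Their fat body sums (8200 and 10013) were far below the next lowest (22920, mutants at 6 h). The part of any of the marker differences in the result for *Su(var)3-9* was not tested.

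The gene lies inside *eIF2gamma*, which encodes a subunit of the translation initiation factor eIF2. The 2 are transcribed in one direction and share 352 of the 2386 exon bases of *Su(var)3-9*, so reads there cannot be assigned to either alone. *eIF2gamma* held 1573 and 1380 normalized counts in controls at 0 h, 1644 and 1637 at 6 h, and 1765 and 1739 at 12 h. In mutants it held 1415 and 1404 at 0 h, 1657 and 1543 at 6 h, and 2050 and 2217 at 12 h, where both values lay above the other 10 libraries. *eIF2gamma* rose in mutants from 0 h to 12 h by 0.60 (0.45 to 0.74, adjusted p = 1.3e-05), a call held in 19 of 23 alternatives because the value lies close to the fold threshold. It was below that threshold between genotypes at 12 h (0.28, adjusted p = 0.0044) and in the difference of the 12 h responses (0.35, adjusted p = 0.016).

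To set the pair against each other, the reads of *Su(var)3-9* were taken as a share of the reads of both genes. The share was 9.93% (exact 95% interval 8.69% to 11.3%) and 9.31% (8.08% to 10.7%) in mutants at 12 h. It was 5.99% to 8.19% in the other 10 libraries, so the mutant libraries at 12 h held the 2 highest shares, with intervals that overlap those of other libraries. These intervals cover counting error only. How far reads of *eIF2gamma* enter the count of *Su(var)3-9* was not tested.

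**Figure D4:**
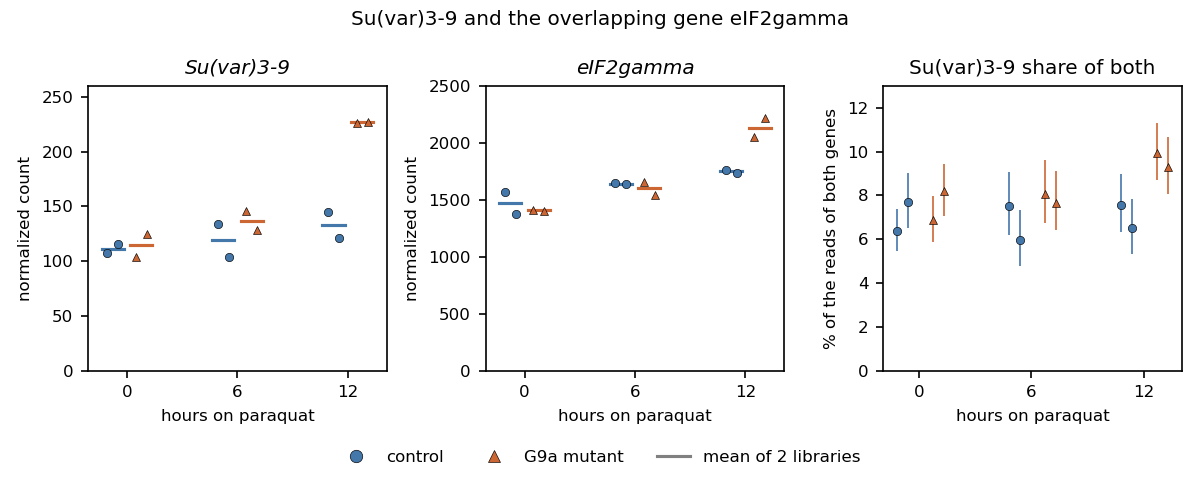
Normalized counts of *Su(var)3-9* and *eIF2gamma* (left and middle, linear axes starting at 0) and *Su(var)3-9* reads as a percentage of the reads of both genes (right, with exact 95% intervals for counting error) against hours on paraquat. Points are libraries, circles for controls and triangles for G9a mutants, and bars are means of 2. Both genes have their highest counts in mutants at 12 h, and the share there is 9.93% and 9.31% against 5.99% to 8.19% in the other 10 libraries.

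*egg* (FBgn0086908) encodes the fly SETDB1. Control libraries held 900 and 875 normalized counts at 0 h, 972 and 996 at 6 h, and 937 and 974 at 12 h, and mutant libraries 950 and 896, 972 and 976, and 919 and 860 at the same hours. The groups overlapped at 0 h and at 6 h, while both mutant values at 12 h were below both control values. In controls at 6 h the log2 difference from 0 h was 0.15 (0.02 to 0.27, adjusted p = 0.081), and between genotypes at 12 h it was -0.10 (-0.23 to 0.02, adjusted p = 0.17). An antisense RNA gene covers 629 exon bases of *egg*, and since the library kit does not mark strand, reads there cannot be told apart.

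*wde* (FBgn0027499) encodes windei, the cofactor of egg. It was the steadiest of the 9 genes over these libraries, with 2562 and 2674 normalized counts at 0 h, 2477 and 2402 at 6 h and 2401 and 2414 at 12 h in controls. Mutants held 2629 and 2457 at 0 h, 2528 and 2555 at 6 h, and 2641 and 2650 at 12 h. At 6 and 12 h both mutant libraries were above both control libraries, a split whose share over all tested genes was not counted. The difference passed the adjusted p at 12 h (0.14, 0.03 to 0.24, adjusted p = 0.034) but was 1.10-fold, and the adjusted p stayed at or below 0.05 in 18 of 23 alternatives. The 12 h responses of the genotypes differed by 0.18 (0.03 to 0.32, adjusted p = 0.064), the second widest difference of the 12 h responses among the 9 genes.

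The HP1 readers did not pass the adjusted p in any of the 9 comparisons. *Su(var)205* (FBgn0003607), the gene of HP1a, the partner of Su(var)3-9 in heterochromatin, held 1654 and 1636 normalized counts in controls at 0 h, 1896 and 1743 at 6 h, and 1766 and 1767 at 12 h. Mutant libraries held 1655 and 1816 at 0 h, 1839 and 1902 at 6 h, and 1883 and 1811 at 12 h. In both genotypes the later values lay mostly above 0 h, by 0.14 in controls at 6 h (0.02 to 0.27, adjusted p = 0.093) and 0.11 in mutants at 6 h (-0.02 to 0.24, adjusted p = 0.17). Between genotypes the log2 difference was 0.08, 0.04 and 0.06 at 0, 6 and 12 h, and the highest interval end was 0.20, at 0 h.

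*HP1b* (FBgn0030082), which is found in both euchromatin and heterochromatin, held 592 and 510 normalized counts in controls at 0 h, 507 and 504 at 6 h, and 552 and 511 at 12 h. Mutants held 528 and 572 at 0 h, 512 and 483 at 6 h, and 529 and 587 at 12 h. The genotypes overlapped at every hour, with log2 differences of -0.00 at 0 h, -0.02 at 6 h and 0.07 at 12 h, the last with an interval of -0.13 to 0.27.

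*HP1c* (FBgn0039019), a mainly euchromatic HP1 that works with the zinc finger proteins woc and row, held 400 and 360 normalized counts in controls at 0 h, 367 and 376 at 6 h, and 380 and 354 at 12 h. Mutants held 376 and 380, 353 and 368, and 341 and 338. The values of mutants at 12 h were the lowest of the 12 libraries. The log2 difference from 0 h in mutants at 12 h was -0.15 (-0.33 to 0.02, adjusted p = 0.12) and that from controls at 12 h was -0.11 (-0.29 to 0.06, adjusted p = 0.29).

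Of the erasers, *Kdm4A* (FBgn0033233) held 460 and 503 normalized counts in controls at 0 h, 499 and 537 at 6 h, and 510 and 478 at 12 h. Mutants held 472 and 421 at 0 h, 464 and 516 at 6 h, and 512 and 464 at 12 h. The genotypes overlapped at every hour. The log2 difference between them was -0.11 at 0 h (-0.31 to 0.09, adjusted p = 0.43), -0.08 at 6 h and -0.02 at 12 h.

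*Kdm4B* (FBgn0053182) held 1543 and 1499 normalized counts in controls at 0 h, 1597 and 1416 at 6 h, and 1606 and 1567 at 12 h. Mutants held 1765 and 1679 at 0 h, 1584 and 1638 at 6 h, and 1819 and 1788 at 12 h. Both mutant values were above both control values at 0 and 12 h, and the groups overlapped at 6 h. The difference between genotypes passed the adjusted p at 0 h (0.18, 0.05 to 0.31, adjusted p = 0.046) and 12 h (0.19, 0.05 to 0.32, adjusted p = 0.026) and not at 6 h (0.10, -0.03 to 0.23, adjusted p = 0.23). These are 1.13-fold and 1.14-fold differences, and the adjusted p stayed at or below 0.05 in 8 of 23 alternatives at 0 h and 17 of 23 at 12 h. *Kdm4B* shares 5718 of its 6742 exon bases with *CG17724* and 3815 with *seq*, both on its strand. *CG17724* held at most 7.49 normalized counts and *seq* 1897 to 2469. How overlapping reads were counted is not given in the sources used here, and the share of *seq* in the count of *Kdm4B* was not tested.

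Among themselves, the profiles of *egg* and *Su(var)205* were the closest of the 36 pairs over the 12 libraries (root mean square difference of centred log2 values 0.08). The 8 pairs with *Su(var)3-9* were the 8 farthest, from 0.31 with *Kdm4B* to 0.42 with *HP1c*.

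Other genes around the mark were taken from a list of 20 partners and antagonists of H3K9 methylation, which holds HP1 partners, the H3K9 demethylase gene *Kdm3*, the H3S10 kinase gene *JIL-1* and others. Of these, 18 were tested, and 0 were called in 8 of the 9 comparisons, where 7.27% to 23% of all tested genes were. In the ninth, between genotypes at 12 h, *ADD1* alone was called, 1 of 18 where 19.7% of all tested genes were. It encodes an HP1a-binding protein with an ADD domain, and held 2250 and 2253 normalized counts in controls and 3613 and 3750 in mutants at 12 h. The log2 difference was 0.71 (0.60 to 0.81, adjusted p = 3.4e-07) and was called in 23 of 23 alternatives. It was 0.36 at 0 h and 0.53 at 6 h, past the adjusted p (0.0002 and 8.1e-06) and below 1.5-fold. The median log2 difference of the 18 genes between genotypes at 12 h was 0.00, as over all tested genes.

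The other HP1 genes, *rhi*, *HP1e*, *HP6* and *HP1D3csd*, held at most 12.0 normalized counts in any library, and 0 of 4 passed the minimum. Rhino, the product of *rhi*, is known from the germline. Of 27 other histone methylation genes (Polycomb and Trithorax groups, H3K4, H3K27, H3K36 and H4K20 enzymes), 25 were tested. In 8 comparisons 0 were called, where 7.27% to 23% of all tested genes were. Between genotypes at 12 h it was 1 of 25, where 19.7% of all tested genes were called. Between genotypes at 12 h, *escl*, a paralog of the H3K27 methylation subunit gene *esc*, was called (0.65, 0.42 to 0.88, adjusted p = 0.0003), with 340 and 286 normalized counts in controls and 489 and 492 in mutants. Without control 12 h replicate 2 it was 0.53 and below 1.5-fold.

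Genes that lie in heterochromatin were examined as places where the writers act. Of 13 tested pericentric genes, 0 were called in 7 comparisons, where 7.27% to 23% of all tested genes were. Between genotypes, 1 of 13 was called at 0 h (10.3% of all tested genes) and 1 at 12 h (19.7%). *AGO3*, of the piRNA pathway, was called lower in mutants at 0 h (18.5 and 24.2 normalized counts in controls, 4.53 and 7.20 in mutants, log2 difference -1.72, adjusted p = 0.010) and at 12 h (13.2 and 22.1 against 6.49 and 7.22, log2 difference -1.21, adjusted p = 0.036). These are few reads. The calls held in 19 and 16 of the 22 alternatives that could test *AGO3*. At 0 h the call was lost with thinned reads (-1.23, adjusted p = 0.10) and without control replicate 2 (-1.53, adjusted p = 0.070) or mutant replicate 1 (-1.44, adjusted p = 0.080). At 12 h it was lost with DESeq2 (-1.37, adjusted p = 0.14), with only the libraries compared (-1.21, adjusted p = 0.076) and with thinned reads (-1.06, adjusted p = 0.12). It was also lost without control replicate 2 (-0.85, adjusted p = 0.23), mutant replicate 1 (-1.14, adjusted p = 0.12) or mutant replicate 2 (-1.27, adjusted p = 0.091).

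Of 88 tested genes of chromosome 4, on which egg is known to act, 1 was called higher and 6 lower in mutants at 12 h against 0 h, where 23% of all tested genes were called. Their median log2 difference was -0.20, against -0.01 over all tested genes. In controls at 12 h, 2 were called higher and 2 lower, where 10.2% of all tested genes were called, with a median of -0.11 against 0.00. Between genotypes at 12 h, 1 was higher and 5 lower, where 19.7% of all tested genes were called, with a median of -0.07 against 0.00. The largest of these differences was in *apolpp*, one of the fat body markers above, which fell by 3.25 in mutants from 0 h to 12 h (adjusted p = 2.6e-09).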

How the data were processed

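Per the labels and the study's methods, the authors mapped 30 bp single-end reads to BDGP 5 (BWA), took counts for each gene (HTSeq) and divided them by size factors (DESeq). The table the authors deposited holds these normalized counts (signal, a kind of scaled coverage) of 15682 genes. All 188184 values were whole multiples of the value of 1 read in their library (tolerance 0.01 reads), so reads were recovered. The authors' tables of their own comparisons (fold changes and p-values) were not used. Symbols were paired with 15002 identifiers through the later annotation on BDGP 6, so no coordinates are given.

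One mean per group was fitted with limma 3.58.1 (R 4.3.3, lmFit, eBayes with trend) to log2 of the normalized count plus 1, over 10530 genes with a mean of at least 10, leaving 6 residual degrees of freedom, without a block. Fold changes are on that scale. The 9 genes and the lists were chosen with earlier results of these data known. Of the lists, all members are counted and at most 4 called genes are named. The 23 alternatives were pseudocounts of 0.5 and 5, no minimum, a minimum of 50, TMM, median centring, only the libraries compared, a replicate block, edgeR 4.0.16, DESeq2 1.42.0, thinned reads, and each library left out. The code was tested on simulated data. Duplicate libraries differed beyond sampling noise in all 6 groups (chi-square per degree of freedom 4.33 to 19.0).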

Additional observations from a re-analysis of the deposited data

Results flagged for a closer look

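Among the 9 H3K9 genes, *Su(var)3-9* alone was called for a difference between the genotypes in response, at 12 h (log2 difference of the responses 0.73, limma with Benjamini-Hochberg adjusted p = 0.028). Both mutant libraries were higher at 12 h than both at 0 h, and so were both control libraries, by less. The share of all tested genes with such splits was not counted. The overlapping gene *eIF2gamma* passed the adjusted p in the same test, below 1.5-fold (0.35, adjusted p = 0.016).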

How the results depend on the processing

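The count of H3K9 genes called was the same under every alternative in 8 of the 9 comparisons. For the difference of the 12 h responses it was 1, and became 0 with DESeq2, and 0 to 1 when single libraries were left out. Of 1863 values of the 9 genes under alternatives, 1777 kept their direction and their side of the thresholds and 6 lost the call, all for *Su(var)3-9*. Another 80 changed sign, each for a difference that was not called and was at most 0.17 on the log2 scale, and 0 of 78 uncalled results became called. Median centring moved the median of all genes by -0.10 at 6 h and 12 h in controls, and the share of calls that were higher there from 78.1% to 65.2% and from 71.9% to 58.9%. Deviations of same-numbered libraries had no common direction, with correlations of -0.57 to 0.45 over 15 pairs of groups, 6 of them over 0.1. Controls at 0 h and 12 h deviated together (0.45). Controls at 6 h deviated against every other group (-0.12 to -0.57). The numbers as given therefore do not pair all samples, and a factor shared under other numbers was not tested. With the replicate number as a block, the number of H3K9 genes called was 1 for mutants at 12 h, 1 between genotypes at 12 h, 1 for the difference of the 12 h responses and 0 otherwise. Counting error limits *Su(var)3-9* most, at 84 to 209 reads per library.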
